A study of Bos taurus with 6 samples.

Results

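Fatty acid beta-oxidation breaks fatty acids down in the mitochondrion. A long-chain acyl-CoA is handed to carnitine by a carnitine palmitoyltransferase of the outer membrane, carried across the inner membrane, and returned to coenzyme A by CPT2. It is then shortened in repeated rounds by an acyl-CoA dehydrogenase, a hydratase, a hydroxyacyl-CoA dehydrogenase and a thiolase, while the electrons pass through the electron transfer flavoprotein to the respiratory chain. Entry through the carnitine shuttle is the best known point of control, and PPARA is the nuclear receptor best known for driving the genes of the pathway in liver. In pluripotent stem cells the use of fatty acids as fuel is known to differ between states of pluripotency.

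The genes described are 10 members of this pathway, CPT1A, CPT2, ACADVL, ACADL, ACADM, HADHA, HADHB, ACAA2, ETFA and PPARA. They were chosen by their role, with earlier results of these data known, and matched by symbol and Entrez identifier. All 10 were among the 19163 genes of the count table. They were measured by RNA-seq in F7, a bovine embryonic stem cell (bESC) line from Holstein Friesian embryos made by in vitro fertilisation, at passage 15. MC-F7 (called 1M in the labels) was grown on mouse embryonic fibroblasts whose division had been stopped with mitomycin C, and MT-F7 on mouse embryonic fibroblasts fixed with methanol, with 3 libraries in each group. Both groups share the line, the passage and the mouse feeder species. F7 is a single line, so variation between lines was not measured. By the paper's methods, the medium was changed daily for MC-F7 and every other day for MT-F7. The effects of the feeder and of the medium changes cannot be told apart. Before RNA extraction the dissociated cells were left on gelatin, and the cells that stayed afloat were taken. Separate cultures for the replicates are not mentioned in the labels, and the statistics section of the paper speaks of at least 3 technical replicates. The p-values therefore measure the spread between these libraries, which may be technical.

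Between 21958386 and 24933430 reads were counted on genes in a library. Levels are given as counts per 1000000 counts (CPM) after TMM scaling, an adjustment for library composition whose factors ran from 0.971 to 1.04. Before that scaling, 3 counts, taken as the smallest amount detected, are 0.12 to 0.137 CPM. These limits cover counting error only. Genes of the mitochondrial genome took 16.3% to 28.3% of the counts in MC-F7 and 18% to 27.9% in MT-F7, and replicate 3 had the highest share in each group. Of the pluripotency markers POU5F1, NANOG and 5 others, 6 of the 7 tested were lower in MT-F7, and their summed level was 1354 to 2028 CPM in MC-F7 and 740 to 856 CPM in MT-F7. Of the fibroblast markers, 3 of the 12 tested passed the test, COL3A1, PDGFRB and POSTN, each higher in MT-F7. The summed level of the list was 240 to 316 CPM in MC-F7 and 356 to 404 CPM in MT-F7. A larger share of reads aligned to the bovine genome in MT-F7 than in MC-F7, and the paper proposes less feeder contamination in MT-F7. From higher matrix genes in MT-F7, the paper also proposes that some of these cells turned into feeder-like cells. The part of mouse feeder reads in these counts was not tested, nor was the part of such cells. Of 6 trophectoderm markers CDX2 was at 0 counts in all 6 libraries, 3 were tested, and KRT8 and KRT18 were lower in MT-F7. TFAP2C had a log2 fold change of -0.02 (adjusted p 0.98 in edgeR). GATA3 held 0 to 7 counts a library and ELF5 0 to 8. The summed level was 1826 to 2831 CPM in MC-F7 and 679 to 792 CPM in MT-F7. Nearly all of it came from KRT8 (means of 1431 and 554 CPM) and KRT18 (859 and 193 CPM), so it is not read as a trophectoderm level. The part of these differences in the results below was not tested, and in bulk samples fewer cells of a type and less RNA per cell cannot be told apart.

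The comparison of MT-F7 with MC-F7 asks whether fixed feeder cells go along with another level of the oxidation genes. Of the 10 members, 9 passed the filter on low counts, and each of these 9 had at least 10 counts in every library. CPT1A, ACADVL, HADHA and HADHB were higher in MT-F7 by 1.81 to 2.89 times. These 4 genes act on long-chain substrates, but so do CPT2 and ACADL, which were not higher. CPT2, ACADL, ACADM, ACAA2 and ETFA did not pass the test, and PPARA was too low to be tested. Calls used edgeR's quasi-likelihood test with Benjamini-Hochberg adjustment over 13001 genes and an adjusted p under 0.05. The members were chosen with earlier results of these data known, so shares beside those of all genes are a description only. Of the tested members, 4 of the 9 (44.4%) were higher, where 11.9% of all tested genes were higher. Lower members numbered 0 of 9 by edgeR, also at an unadjusted p under 0.05 and by DESeq2 and limma, where 11.3% of all tested genes were lower by edgeR. The median log2 fold change of the 9 members was 0.05, and that of all tested genes was 0.00 to 2 decimals. All 3 MT-F7 values lay above all 3 MC-F7 values in 4 of the 9 members, a pattern seen in 19.9% of all tested genes, and below them in 1 member, a pattern seen in 20.1%.

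**Figure D1:**
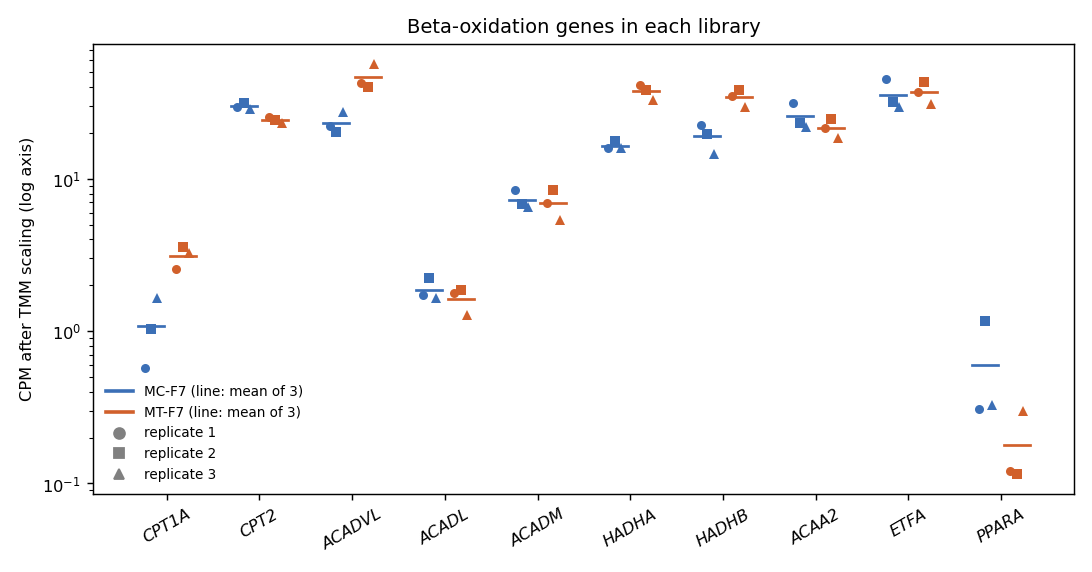
Level of each beta-oxidation gene in each of the 6 libraries, in CPM after TMM scaling on a log axis. Points are libraries (shape gives the replicate number), short lines are means of 3, blue is MC-F7 and orange is MT-F7. CPT1A, ACADVL, HADHA and HADHB are higher in every MT-F7 library than in any MC-F7 library, whereas ACADL, ACADM, ACAA2 and ETFA overlap.

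CPT1A encodes the carnitine palmitoyltransferase of the outer mitochondrial membrane that is typical of liver and many other tissues. By length-adjusted level it was among the least abundant members. The 3 MC-F7 libraries held 13, 25 and 35 counts of CPT1A (Entrez 506812), which is 0.575, 1.04 and 1.64 CPM, and the 3 MT-F7 libraries held 64, 92 and 77 counts, which is 2.55, 3.55 and 3.27 CPM. The groups did not overlap, and the range of CPM within a group was similar in both. The mean rose from 1.08 ± 0.532 to 3.12 ± 0.517 CPM (SD, n = 3), a log2 fold change of 1.53 (SE 0.376, 95% interval 0.72 to 2.34, 2.89-fold), with an adjusted p of 0.01 by edgeR's quasi-likelihood test. Leaving out MC-F7 replicate 1, which had the lowest count, gave a log2 fold change of 1.23 with an adjusted p of 0.029 in edgeR.

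CPT2 encodes the inner-membrane enzyme that rebuilds the acyl-CoA in the matrix. Its levels (Entrez 504502) were 29.7, 31.4 and 28.6 CPM in MC-F7 and 25.6, 24.3 and 23.1 CPM in MT-F7. Every MT-F7 library was below every MC-F7 library, but the step between the groups was small. The means were 29.9 ± 1.39 and 24.3 ± 1.24 CPM (SD, n = 3), and the log2 fold change of -0.30 (SE 0.148, 95% interval -0.62 to 0.02) did not pass the test, with an adjusted p of 0.17 in edgeR.

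The 95% intervals of the CPT1A and CPT2 fold changes did not overlap. SLC25A20, the carrier that links them across the inner membrane, had a log2 fold change of 0.16 and an adjusted p of 0.58 in edgeR. CPT1A has the paralogs CPT1B, typical of muscle, and CPT1C, typical of neurons. The authors' TPM values, which take account of gene length, allow the genes to be set beside each other, with the caveat that the lengths used were not checked. On this scale CPT1A was 0.0404 ± 0.0183 in MC-F7 and 0.129 ± 0.0232 in MT-F7, CPT1B was 0.780 ± 0.0506 and 1.43 ± 0.137, and CPT1C was 0.999 ± 0.162 and 1.67 ± 0.506 (SD, n = 3). CPT1A thus made up 1.34% to 2.81% of the summed TPM of the 3 CPT1 genes in MC-F7 and 3.23% to 5.37% in MT-F7, a comparison chosen after the values were seen. CPT1B, at 40.5% to 46% and 39.8% to 49%, and CPT1C, at 52.7% to 56.7% and 47.3% to 57%, kept most of the sum in both groups. CPT1A was therefore the CPT1 gene with the largest fold and the smallest share of the transcripts. These are shares of RNA only. The part of each gene in carnitine entry was not measured.

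**Figure D2:**
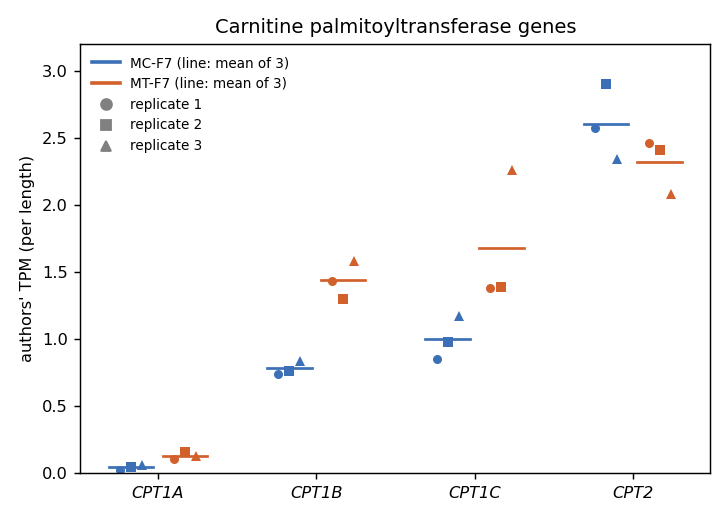
The authors' TPM of the CPT1 genes and CPT2 in each of the 6 libraries, with short lines for means of 3, blue for MC-F7 and orange for MT-F7. CPT1A stays under 0.2 TPM in every library, far below CPT1B and CPT1C, and the CPT2 libraries of both groups lie between 2.08 and 2.9 TPM.

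Acyl-CoA dehydrogenases take the first electrons from the fatty acid, each preferring a range of chain lengths. ACADVL, which is bound to the inner membrane and takes very long chains, rose, while ACADL and ACADM did not pass the test. ACADVL (Entrez 282130) had 22.1, 20.4 and 27.3 CPM in MC-F7 and 42.5, 40.2 and 56.3 CPM in MT-F7. The groups did not overlap, and replicate 3 was the highest library in both. The mean rose from 23.3 ± 3.6 to 46.4 ± 8.7 CPM (SD, n = 3), a log2 fold change of 0.99 (SE 0.182, 95% interval 0.60 to 1.39, 1.99-fold), with an adjusted p of 0.0018 by edgeR's quasi-likelihood test. Without MT-F7 replicate 3 the log2 fold change was 0.823 and the adjusted p 0.0042 in edgeR.

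ACADVL lies beside DVL2 in the RefSeq annotation of ARS-UCD2.0. The annotated genes do not overlap, and MIR324, which overlaps ACADVL, held at most 4 counts in a library. The MC-F7 libraries held 412, 449 and 299 counts of DVL2, and the MT-F7 libraries 685, 701 and 595. Its counts were also higher in every MT-F7 library, but fewer than those of ACADVL, which held 500, 492 and 584 counts and then 1068, 1041 and 1326 counts. The part of the neighbour in the ACADVL result was not tested.

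ACADL, which takes long chains, was low in both groups. The ACADL levels (Entrez 614508) were 1.73, 2.24 and 1.64 CPM in MC-F7 and 1.79, 1.85 and 1.27 CPM in MT-F7. The groups overlapped, and the log2 fold change of -0.19 (SE 0.328, 95% interval -0.90 to 0.52) had an adjusted p of 0.73 in edgeR. With 30 to 54 counts a library, the interval leaves room for a change of either sign.

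ACADM, which takes medium chains, showed no detectable difference. The ACADM levels (Entrez 505968) were 8.4, 6.84 and 6.55 CPM in MC-F7 and 6.93, 8.38 and 5.35 CPM in MT-F7. The highest and the lowest MT-F7 library lay on either side of most MC-F7 libraries. The log2 fold change was -0.08 (SE 0.222, 95% interval -0.56 to 0.41), with an adjusted p of 0.84 in edgeR. ACADS, the dehydrogenase of short chains, was not a member and had a log2 fold change of 0.32 with an adjusted p of 0.17 in edgeR.

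HADHA and HADHB encode the alpha and beta subunits of the mitochondrial trifunctional protein, which carries out the hydratase, dehydrogenase and thiolase steps on long chains. Both subunits rose. HADHA (Entrez 281810) had 16, 17.7 and 15.9 CPM in MC-F7 and 41.4, 38.2 and 32.7 CPM in MT-F7. Among the members it had the lowest adjusted p, and its lowest MT-F7 library was well above its highest MC-F7 library. The mean rose from 16.5 ± 1.01 to 37.4 ± 4.39 CPM (SD, n = 3), a log2 fold change of 1.18 (SE 0.16, 95% interval 0.84 to 1.53, 2.27-fold), with an adjusted p of 2e-04 by edgeR's quasi-likelihood test.

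HADHB (Entrez 281811) had 22.6, 19.8 and 14.6 CPM in MC-F7 and 35.2, 38.3 and 29.7 CPM in MT-F7. The groups did not overlap, and replicate 3 was the lowest library in both. The mean rose from 19 ± 4.04 to 34.4 ± 4.35 CPM (SD, n = 3), a log2 fold change of 0.85 (SE 0.188, 95% interval 0.45 to 1.26, 1.81-fold), with an adjusted p of 0.0056 by edgeR's quasi-likelihood test. On the authors' TPM with limma and a pseudocount of 1 this call was lost, at a log2 fold change of 0.606 and an adjusted p of 0.052.

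HADHA and HADHB are neighbours in the RefSeq annotation of ARS-UCD2.0, with no overlap and no gene between them. Within a library, the ratio of HADHA to HADHB on the TPM scale was 0.853, 1.08 and 1.31 for MC-F7, against 1.42, 1.21 and 1.33 for MT-F7. The groups overlapped, and the means of 1.08 ± 0.227 and 1.32 ± 0.107 (SD, n = 3) gave a two-sided exact permutation p of 0.2. The smallest p that 3 against 3 libraries allow is 0.1. No difference in the ratio of the subunits was detectable with these libraries.

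The matrix holds separate enzymes for shorter chains, ECHS1 for the hydratase step and HADH for the dehydrogenase step. ECHS1 had a log2 fold change of -0.07 (95% interval -0.41 to 0.27, adjusted p 0.79 in edgeR), and HADH had -0.12 (95% interval -0.62 to 0.38, adjusted p 0.75 in edgeR). HADHA was therefore compared with each of them within a library, after the values had been seen. The ratio of HADHA to ECHS1 in TPM was 0.157 ± 0.02 in MC-F7 and 0.373 ± 0.0264 in MT-F7, and that of HADHA to HADH was 0.186 ± 0.0737 and 0.418 ± 0.0315 (SD, n = 3). Both ratios were higher in every MT-F7 library than in any MC-F7 library.

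The ratio of ACADVL to ACADM was 2.27, 2.58 and 3.6 for MC-F7, against 5.3, 4.14 and 9.09 for MT-F7. The ratio of CPT2 to the summed CPT1 genes moved the other way, from 1.59, 1.63 and 1.13 in MC-F7 to 0.845, 0.848 and 0.525 in MT-F7. These 4 ratios set genes already seen to differ in their change against each other, and are given as a description. The exact permutation test gave a p of 0.1 for each, the smallest it allows, and is not used as support.

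**Figure D3:**
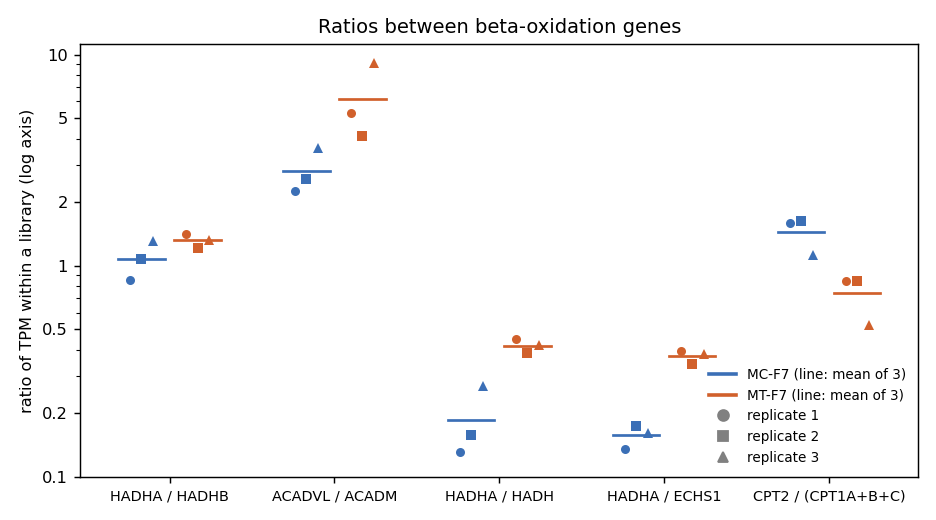
Ratios of TPM between pairs of beta-oxidation genes within each of the 6 libraries, on a log axis, with short lines for means of 3, blue for MC-F7 and orange for MT-F7. The HADHA to HADHB ratio overlaps between the groups, the ratios of ACADVL to ACADM and of HADHA to HADH and ECHS1 are higher in MT-F7, and the ratio of CPT2 to the CPT1 sum is lower.

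ACAA2 encodes a matrix thiolase that cuts off acetyl-CoA at the end of a round, apart from the trifunctional protein, which does so on long chains. The ACAA2 levels (Entrez 522006) were 31.5, 23.4 and 22 CPM in MC-F7 and 21.5, 24.8 and 18.6 CPM in MT-F7. The groups overlapped, with MC-F7 replicate 1 the highest library. The log2 fold change was -0.24 (SE 0.185, 95% interval -0.64 to 0.15), with an adjusted p of 0.37 in edgeR. Without MC-F7 replicate 1 it was -0.0696.

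ETFA encodes the alpha subunit of the electron transfer flavoprotein, which takes the electrons from the acyl-CoA dehydrogenases. Levels of ETFA (Entrez 521892) were 45.5, 32 and 29.4 CPM in MC-F7 and 37.1, 43 and 30.8 CPM in MT-F7. The groups overlapped over most of their range. The log2 fold change was 0.05 (SE 0.195, 95% interval -0.37 to 0.47), with an adjusted p of 0.88 in edgeR.

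The direct partners of ETFA in this transfer, ETFB and ETFDH, did not pass the test either. ETFB, the beta subunit, was at 83.4 ± 13.5 CPM in MC-F7 and 106 ± 6.4 CPM in MT-F7 (SD, n = 3), a log2 fold change of 0.35 with an adjusted p of 0.13 in edgeR. ETFDH, which passes the electrons on to ubiquinone, had a log2 fold change of 0.05 with an adjusted p of 0.89. ETFRF1, which regulates the flavoprotein, was the gene of this list of 3 that rose, from 2.73 ± 0.412 to 5.57 ± 1.13 CPM (log2 fold change 1.03, adjusted p 0.011 in edgeR). Without MT-F7 replicate 2 the ETFRF1 call was lost, with an adjusted p of 0.058.

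**Figure D4:**
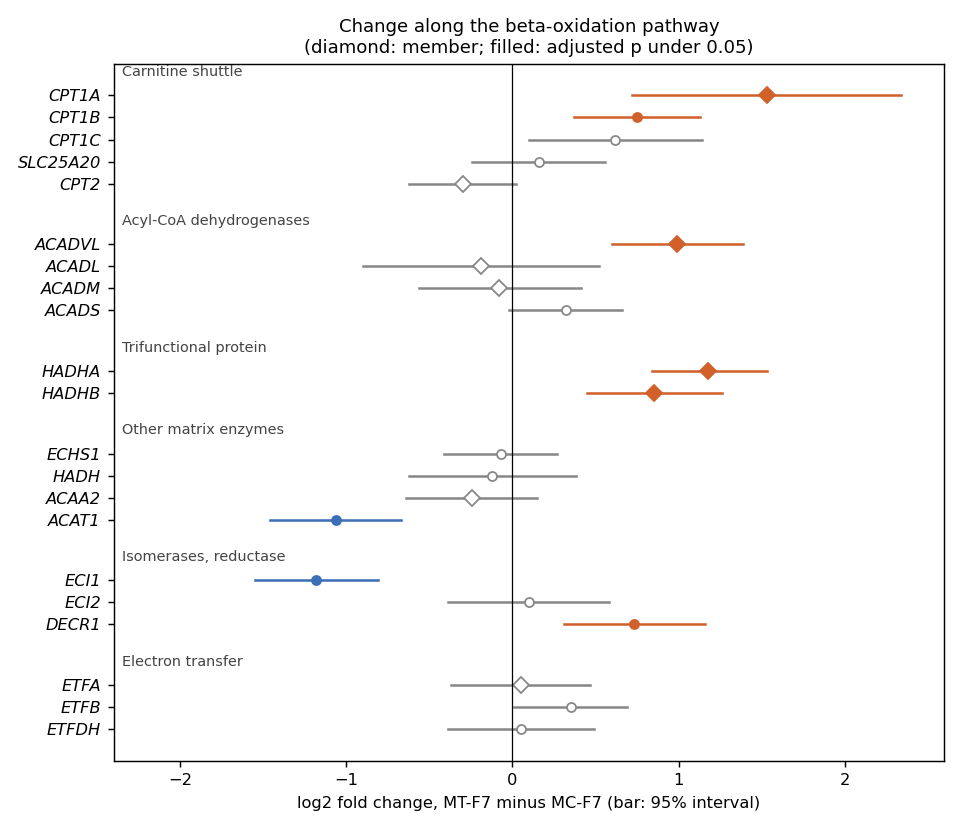
Log2 fold change of MT-F7 over MC-F7 along the pathway, with bars for the 95% interval. Diamonds are the 9 tested members, circles are other genes of the same steps, and filled symbols passed an adjusted p under 0.05 in edgeR (orange higher, blue lower). CPT1A at 1.53, HADHA at 1.18, ACADVL at 0.99 and HADHB at 0.85 lie to the right, while ECI1 at -1.18 and ACAT1 at -1.06 lie to the left.

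PPARA was barely detected. The 3 MC-F7 libraries held 7, 28 and 7 counts of PPARA (Entrez 281992) and the 3 MT-F7 libraries 3, 3 and 7 counts. In CPM the MC-F7 libraries were at 0.31, 1.16 and 0.327, and the MT-F7 libraries at 0.12, 0.116 and 0.297. MC-F7 replicate 2 alone stood high, and the other 5 libraries had 7 counts or fewer. PPARA did not pass the filter on low counts. With all genes of at least 1 count in the fit, its log2 fold change was -1.75 (SE 0.785) with an adjusted p of 0.13 in edgeR, so a difference was not detectable at this depth.

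Among themselves the members spanned a wide range of levels. In MC-F7 the order by mean TPM was ETFA (5.26), CPT2 (2.6), ACAA2 (2.32), ACADVL (1.9), HADHA (1.19), HADHB (1.14), ACADM (0.691), ACADL (0.222), PPARA (0.0467) and CPT1A (0.0404). The library ranges overlapped between CPT2 and ACAA2, between ACAA2 and ACADVL, between HADHA and HADHB, and between PPARA and CPT1A, and were apart for the other neighbours. In MT-F7 the order was ETFA (5.99), ACADVL (4.14), HADHA (2.96), CPT2 (2.32), HADHB (2.25), ACAA2 (2.15), ACADM (0.722), ACADL (0.213), CPT1A (0.129) and PPARA (0.0144). There the ranges overlapped between ETFA and ACADVL and among HADHA, CPT2, HADHB and ACAA2 from each to the next. ACADVL and HADHA thus stood below CPT2 and ACAA2 in mean TPM in MC-F7 and above them in MT-F7. Over both groups, 87.7% of the genes had a lower mean TPM than ETFA, 80.2% a lower one than ACADVL and 41.6% a lower one than CPT1A.

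The rest of the pathway was followed in 83 further genes, of which 73 were tested. Of these, 8 were higher in MT-F7 (11.0%) and 14 lower (19.2%), beside 11.9% and 11.3% of all tested genes, and the median log2 fold change was -0.01. The share of higher genes was near that of all genes and the share of lower genes was above it, but both counts moved with single libraries. Higher genes numbered 5 without MC-F7 replicate 2, 5 without MT-F7 replicate 1 and 4 without MT-F7 replicate 2, and lower genes 8 without MC-F7 replicate 2. Limma on the TPM gave 5 higher and 4 lower with a pseudocount of 1, and 8 higher and 7 lower with 0.1. These limma fits had no correction for depth, and a pseudocount shrinks the fold change of genes with low TPM. Of the genes named below, CROT, ACSBG1, ACAD10, HSD17B4, PECR, AMACR, ESRRA and ANGPTL4 lost their call in both limma fits, with adjusted p from 0.083 to 0.54. SLC22A5, ACSL6, ACAT1, DECR1, FGF21 and FABP7 lost it with a pseudocount of 1 only, with adjusted p from 0.058 to 0.12.

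Among the 6 genes of carnitine entry, 2 rose (33.3%) and 1 fell (16.7%), where 11.9% of all tested genes were higher and 11.3% lower. CPT1B rose from 13.3 ± 1.56 to 22.3 ± 3.22 CPM (SD, n = 3; log2 fold change 0.75, adjusted p 0.0081 in edgeR). SLC22A5, the carnitine transporter of the plasma membrane, rose from 0.534 ± 0.149 to 1.52 ± 0.295 CPM (1.51, adjusted p 0.019), and CROT, a carnitine octanoyltransferase of peroxisomes, fell from 8.26 ± 1.57 to 4.06 ± 1.59 CPM (-1.02, adjusted p 0.021). CPT1C, with a log2 fold change of 0.62, missed the threshold at an adjusted p of 0.081 in edgeR and passed it without MC-F7 replicate 3 (0.033). SLC22A5 was low, at 11, 10 and 15 counts for MC-F7 against 44, 42 and 28 for MT-F7. The call of CPT1B was lost without MC-F7 replicate 2 (adjusted p 0.054 in edgeR). That of SLC22A5 was lost without MC-F7 replicate 1 (0.051) or 2 (0.092) and without MT-F7 replicate 1 (0.081) or 2 (0.064), and that of CROT without MC-F7 replicate 1 (0.057) or 2 (0.079) and without MT-F7 replicate 1 (0.063).

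Acyl-CoA synthetases activate fatty acids before entry. Of the 6 tested, ACSL6 fell from 8.07 ± 1.73 to 4.06 ± 1.01 CPM (SD, n = 3; log2 fold change -0.99, adjusted p 0.012 in edgeR) and ACSBG1 from 1.03 ± 0.509 to 0.252 ± 0.0896 CPM (-2.01, adjusted p 0.021). ACSBG1 was low, at 11, 36 and 24 counts for MC-F7 against 6, 9 and 4 for MT-F7. ACSL5 held at most 2 counts in a library and was not tested. ACSL6 lost its call without MT-F7 replicate 2 (adjusted p 0.056 in edgeR), and ACSBG1 without MC-F7 replicate 2 (0.12) or without MT-F7 replicate 1 (0.072) or 3 (0.065).

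Other mitochondrial enzymes of the pathway moved in both directions, with 3 higher (23.1%) and 2 lower (15.4%) of 13 tested. Among all tested genes 11.9% were higher and 11.3% lower. ECI1, an isomerase for unsaturated fatty acids, fell from 92.7 ± 15.7 to 41 ± 5.22 CPM (SD, n = 3; log2 fold change -1.18, adjusted p 0.00034 in edgeR), and ACAT1, the thiolase of acetoacetyl-CoA, which also serves ketone bodies and isoleucine, fell from 365 ± 72 to 175 ± 25.1 CPM (-1.06, adjusted p 0.0011). DECR1, a reductase for unsaturated fatty acids, rose from 7.43 ± 0.674 to 12.4 ± 2.23 CPM (0.73, adjusted p 0.017). ACAD8, which belongs to valine breakdown, rose from 22.9 ± 1.79 to 32.4 ± 4.77 CPM (0.50, adjusted p 0.042). ACAD10 rose in the counts, from 7.43 ± 1.69 to 14.9 ± 3.38 CPM (1.01, adjusted p 0.0059), but its TPM of 0.341 ± 0.00944 and 0.381 ± 0.0508 did not follow its counts, and limma on the TPM gave an adjusted p of 0.49. DECR1 lost its call without MT-F7 replicate 1 (adjusted p 0.074 in edgeR) or 2 (0.079). ACAD8 lost it without MC-F7 replicate 1 (0.1) or 2 (0.16) and without MT-F7 replicate 1 (0.052), 2 (0.098) or 3 (0.11).

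In peroxisomes, which shorten very long and branched chains with their own enzymes, 3 of 12 tested genes passed, each lower in MT-F7. This is 25% of the list, beside 11.3% lower among all tested genes. HSD17B4, the bifunctional enzyme, fell from 169 ± 19.1 to 105 ± 17.3 CPM (SD, n = 3; log2 fold change -0.68, adjusted p 0.01 in edgeR), PECR, an enoyl-CoA reductase, from 13.6 ± 2.03 to 7.63 ± 1.44 CPM (-0.83, adjusted p 0.01), and AMACR, a racemase for branched chains, from 19.1 ± 4.91 to 10.3 ± 2.27 CPM (-0.90, adjusted p 0.013). All 3 calls were lost in both limma fits, where HSD17B4 had an adjusted p of 0.14 and 0.11. ACOX2 was not tested, at 4 to 11 counts a library. The PECR call was lost without MC-F7 replicate 2 (adjusted p 0.053 in edgeR) and the AMACR call without MC-F7 replicate 1 (0.051) or 2 (0.054).

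Of 15 regulators, 3 passed (20%), each lower in MT-F7, beside 11.3% lower among all tested genes. PPARGC1B, a coactivator of mitochondrial genes, fell from 3.52 ± 0.752 to 0.959 ± 0.642 CPM (SD, n = 3; log2 fold change -1.88, adjusted p 0.006 in edgeR), and without MT-F7 replicate 3 the log2 fold change was -2.58. MLYCD, which degrades the CPT1 inhibitor malonyl-CoA, fell from 15.6 ± 2.53 to 7.18 ± 2.26 CPM (-1.12, adjusted p 0.004), and ESRRA, a nuclear receptor that works with such coactivators, from 49.4 ± 6.56 to 34.2 ± 4.33 CPM (-0.53, adjusted p 0.033). ESRRA lost its call without MC-F7 replicate 1 (adjusted p 0.11 in edgeR) or 2 (0.11) and without MT-F7 replicate 1 (0.11) or 2 (0.14). The coactivator PPARGC1A had a log2 fold change of 1.44 at an adjusted p of 0.073, and passed without MC-F7 replicate 3 (0.02). PPARGC1A was low, at 4, 5 and 13 counts for MC-F7 against 21, 26 and 20 for MT-F7. PPARD, the relative of PPARA, was at 58.8 ± 6.57 CPM in MC-F7 and 50.9 ± 2.12 CPM in MT-F7, with an adjusted p of 0.34 in edgeR.

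Genes that respond to PPARA in other tissues were mostly low. UCP3, FABP1 and VNN1 were at 0 counts in all 6 libraries, which allows up to 0.12 to 0.137 CPM in a library before TMM scaling. CYP4A11 had 4 counts in a single library, and for PDK4 the MC-F7 libraries gave 4, 4 and 0 counts while the MT-F7 libraries gave 6, 13 and 6. Of the 7 tested, FGF21, a secreted hormone, fell from 1.15 ± 0.611 to 0.203 ± 0.0761 CPM (SD, n = 3; log2 fold change -2.49, adjusted p 0.0078 in edgeR), and ANGPTL4, an inhibitor of lipoprotein lipase, from 5.87 ± 0.708 to 3.48 ± 0.882 CPM (-0.75, adjusted p 0.047). The ANGPTL4 call was lost without MC-F7 replicate 1 (adjusted p 0.067 in edgeR) or 2 (0.18) and without MT-F7 replicate 1 (0.054), 2 (0.091) or 3 (0.11). FGF21 rested on few reads, 41, 25 and 13 counts for MC-F7 against 6, 3 and 6 for MT-F7. Its MT-F7 values are near the 3 counts taken as the smallest amount detected. The other 5 tested genes of the list did not pass.

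Of 11 genes of fatty acid uptake and lipolysis, 2 rose (18.2%) and 1 fell (9.09%). These shares are near those of all tested genes, 11.9% higher and 11.3% lower. SLC27A2, a fatty acid transport protein, rose from 1.47 ± 0.984 to 6.26 ± 1.3 CPM (SD, n = 3; log2 fold change 2.08, adjusted p 0.0021 in edgeR), and FABP7, the fatty acid binding protein typical of brain, from 79.4 ± 14.7 to 142 ± 22.3 CPM (0.84, adjusted p 0.0048). PNPLA2, the lipase that starts the breakdown of stored triglyceride, fell from 51.9 ± 5.72 to 30.5 ± 1.08 CPM (-0.77, adjusted p 0.0028). Without MC-F7 replicate 1, its highest library in that group, SLC27A2 had a log2 fold change of 2.74.

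**Figure D5:**
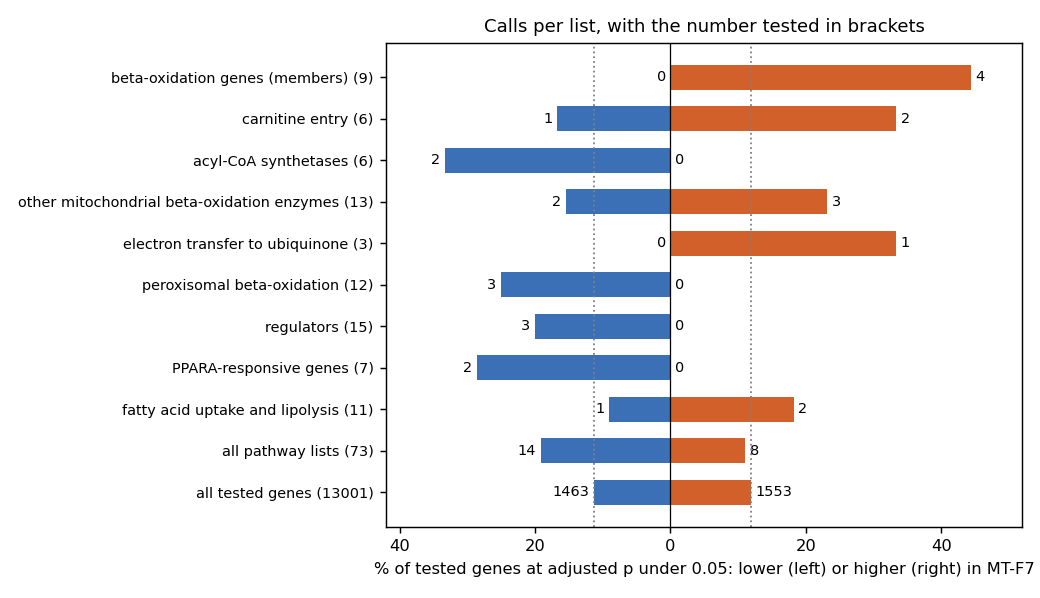
Percentage of the tested genes of each list that passed an adjusted p under 0.05 in edgeR, lower (left, blue) or higher (right, orange) in MT-F7, with the number of genes at the end of each bar and the number tested in brackets. Dotted lines mark the shares among all tested genes, 11.9% higher and 11.3% lower. The beta-oxidation members reach 44.4% higher (4 of 9), and the called genes of the peroxisomal list, the regulators and the PPARA-responsive list are all lower. The members and lists were chosen with earlier results of these data known, so the shares are a description.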

How the data were processed

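Libraries of MC-F7 and MT-F7, 3 each, were grouped by the titles in the labels. Reads were aligned with HISAT2 2.0.5 to the Bos taurus genome from Ensembl and counted per gene with featureCounts 1.5.0-p3 by the authors, who deposited raw counts per Entrez gene. The genome build is not given in the sources used here. The authors also deposited TPM values. For the members these were in 1 fixed ratio to the counts in all 6 libraries, so depth remains in them, and their columns did not add up to 1000000. They were used to compare genes with each other, and in the limma fits between the groups, without a correction for depth. With a pseudocount of 1 in limma the log2 fold change of CPT1A was 0.118, against 1.53 in edgeR.

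Low genes were removed with filterByExpr (count minimum 10, total minimum 15), and the rest scaled by TMM and compared by the two-sided quasi-likelihood test of edgeR 4.0.16 in R 4.3.3, with Benjamini-Hochberg adjustment over all tested genes and 0.05 as threshold. The steps were tested on simulated data. Alternatives were other scaling and filters, DESeq2 1.42.0, limma 3.58.1 on log2(TPM + 1) and log2(TPM + 0.1), the replicate number as a block, removal of mitochondrial genome genes, and each library left out. Symbols and neighbouring genes came from RefSeq (ARS-UCD2.0). ABCD2 and ACOT1 were not analysed here, and a further listed gene is not reported here.

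All 10 members are named. In each further list, genes at an adjusted p under 0.05 (up to 4 per direction), partners of members, and genes under the count filter are named. ACADS, CPT1C, DVL2, CHKB, PPARGC1A and PPARD were added after their values were seen. The members and lists were chosen with earlier results of these data known. Tables were made with Python 3.11.15, pandas 2.3.3 and scipy 1.17.1.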

Additional observations from a re-analysis of the deposited data

How the results depend on the processing

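CPT1A, ACADVL and HADHA passed the threshold, higher in MT-F7, in all 16 alternatives and HADHB in 15. The counts of members were 4 higher and 0 lower in every alternative except limma on log2(TPM + 1), which gave 3 higher. Some members and partners that did not pass changed sign. ACADM was 0.0219 and 0.0366 (log2) by limma on log2(TPM + 1) and log2(TPM + 0.1), 0.0252 without both replicate 3 libraries, and -0.238 to 0.0706 with each library left out. With a library left out ETFA ran from -0.0719 to 0.267, SLC25A20 from -0.00358 to 0.29, ETFDH from -0.0813 to 0.136, HADH from -0.386 to 0.0703 and ECHS1 from -0.145 to 0.0286. By limma with a pseudocount of 1 and of 0.1, HADH was 0.0541 and 0.0711 and ECHS1 0.0519 and 0.0569, and ECHS1 was 0.0022 without both replicate 3 libraries. Of the further pathway genes, 8 were higher and 14 lower. Limma on log2(TPM + 1) gave 5 and 4, and limma on log2(TPM + 0.1) gave 7 lower. With each library left out, 4 to 10 were higher and 8 to 16 lower, the higher genes numbering 5 without MC-F7 replicate 2, 5 without MT-F7 replicate 1 and 4 without MT-F7 replicate 2, and the lower genes 8 without MC-F7 replicate 2. Over all genes 3016 were called, and 1914 to 3093 with a library left out, the lowest without MC-F7 replicate 2. Libraries with the same replicate number deviated together with r = 0.121, 0.0388 and 0.373 for numbers 1, 2 and 3, so the numbers were not taken as pairs. As a hint from the data only, 3 of the 6 libraries correlated best with their own number. With the replicate block 13 further pathway genes were higher and 4674 of all genes were called, with 4 members higher as before, and CPT1C (adjusted p 0.0034 in edgeR), ETFB (0.033) and PPARGC1A (0.047) passed. Leaving out both replicate 3 libraries, chosen after seeing the data because of their mitochondrial share, gave 4 members higher, 10 and 15 further pathway genes and 4242 of all genes. The cause of these differences was not tested. CPT1A at 13 to 92 counts, ACADL at 30 to 54 and PPARA at 3 to 28 are the members that depth limits most. Depth also limits further genes, such as FGF21 at 3 to 41 counts, ACSBG1 at 4 to 36, PPARGC1A at 4 to 26 and SLC22A5 at 10 to 44. With at least 10 counts required in every library, FGF21, ACSBG1 and PPARGC1A were not tested.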
